A study of Mus musculus with 16 samples.

Results

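The genes examined here are markers of lymphocytes and components of antigen presentation: 6 genes of B cells and B cell areas, 2 of plasma cells, 10 of T cells, 5 of natural killer (NK) and other cytotoxic cells, 5 of the major histocompatibility complex (MHC) class II pathway and 6 of the class I pathway. They were taken from a list of 34 names by exact match to the gene name in the deposited tables. Of the 34 names, 33 were found among 25803 genes. The exception, Xbp1s, is the name of a spliced transcript and matched no gene name. After a filter on low counts 26 of the 33 could be tested, among 14488 genes in all.

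The samples were livers of male mice kept on a high-fat diet (HFD) for 12 weeks. Control mice were compared with mice lacking Cpt1a in the liver (LKO), where Cpt1a encodes the mitochondrial enzyme that commits long-chain fatty acids to oxidation. Each genotype was sampled fasted, after 16 h without food, or refed, after the same 16 h fast and 6 h of feeding. This gave 4 groups of 4 libraries: fasted control, fasted LKO, refed control and refed LKO, all on the HFD. Refed livers were taken 6 h further from the start of the fast than fasted ones. Feeding cannot be told apart here from that added time. How the knockout was made, and what the controls carry, is not given in the sources used here, nor are the age of the mice and whether each library came from a separate mouse. The p-values below therefore measure the spread between these libraries, which may be partly technical.

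MHC class I molecules are found on nearly all nucleated cells, hepatocytes included, and show peptides from inside the cell to CD8 T cells. The peptides are cut by the proteasome, in which interferon-inducible subunits such as PSMB8 and PSMB9 can replace the standard ones, and are carried into the endoplasmic reticulum by the TAP transporter. MHC class II molecules show peptides from outside the cell to CD4 T cells, and are made by B cells, dendritic cells and macrophages under the transactivator CIITA. In liver the class II genes mark non-parenchymal cells, and the lymphocyte genes mark cells that lie in the sinusoids and portal tracts.

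Libraries are named here by the headings of the count columns, which carry no replicate number: the fasted libraries are S40 to S43 (control) and S44 to S47 (LKO), and the refed ones are S48 to S51 (control) and S52 to S55 (LKO). Their totals ran from 14721601 to 24618230 counts. Cpt1a, the targeted gene, ran from 378 to 556 CPM, the read count scaled to the size of its library, in fasted control and from 86.1 to 126 CPM in fasted LKO, and from 319 to 620 CPM in refed control against 39.9 to 75.2 CPM in refed LKO, so its groups did not overlap. The hepatocyte markers and defining macrophage genes Clec4f and Cd5l were present in every library, as is usual for whole liver. Among refed control libraries, S49 had the most macrophage and monocyte RNA, with a summed level of 972 CPM over 12 markers against 593, 387 and 268 CPM in S48, S50 and S51. Among fasted LKO libraries, S47 stood apart in H2-K1 and H2-D1 and was the highest in the class II genes. In whole tissue, fewer cells of a type and less RNA per cell cannot be told apart, and this holds for every gene below.

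The lymphocyte genes were scarce and the MHC genes abundant. On the scale of mean CPM per kilobase of gene length over the 16 libraries, which allows levels of different genes to be compared, B2m, the invariant light chain of class I molecules, had a level of 2088, and the class I heavy chains H2-K1 and H2-D1 had levels of 621 and 358. Cd74, the invariant chain that escorts class II molecules, had a level of 60.4, and the class II chains H2-Eb1, H2-Ab1 and H2-Aa had levels of 19.1, 16.0 and 8.93. Psmb8, Psmb9 and Tap1 had levels of 11.1, 10.9 and 9.97. The highest lymphocyte gene on that scale was the chemokine Ccl5, with a level of 2.03, followed by Cxcl13 (1.90) and the T cell receptor beta constant gene Trbc2 (1.23). Ciita had a level of only 0.151. In counts, Tnfrsf17, the plasma cell receptor BCMA, had 0 to 2 in each library and 8 in all, so it can show nothing about plasma cells at this depth. Of the 22 lymphocyte members found, 15 could be tested, against 11 of 11 MHC members. The 7 left out for low counts were Ms4a1, Cxcr5, Tnfrsf17, Cd8b1, Gzma, Gzmb and Klrb1c. To be tested a gene had to reach 0.564 CPM, or 10 counts in a library of median size, in 4 libraries. Cd8a and Pou2af1 reached it in LKO libraries only, and Cd3d, Cd3e and Trac in fewer than 4 control libraries, so that lymphocyte genes entered the test partly through the group in which they were high. By feeding state, Cd3d reached it in 5 fasted libraries and 0 refed ones. Counts and medians over the lymphocyte genes tested are therefore descriptions and support no difference between genotypes or feeding states.

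**Figure D1:**
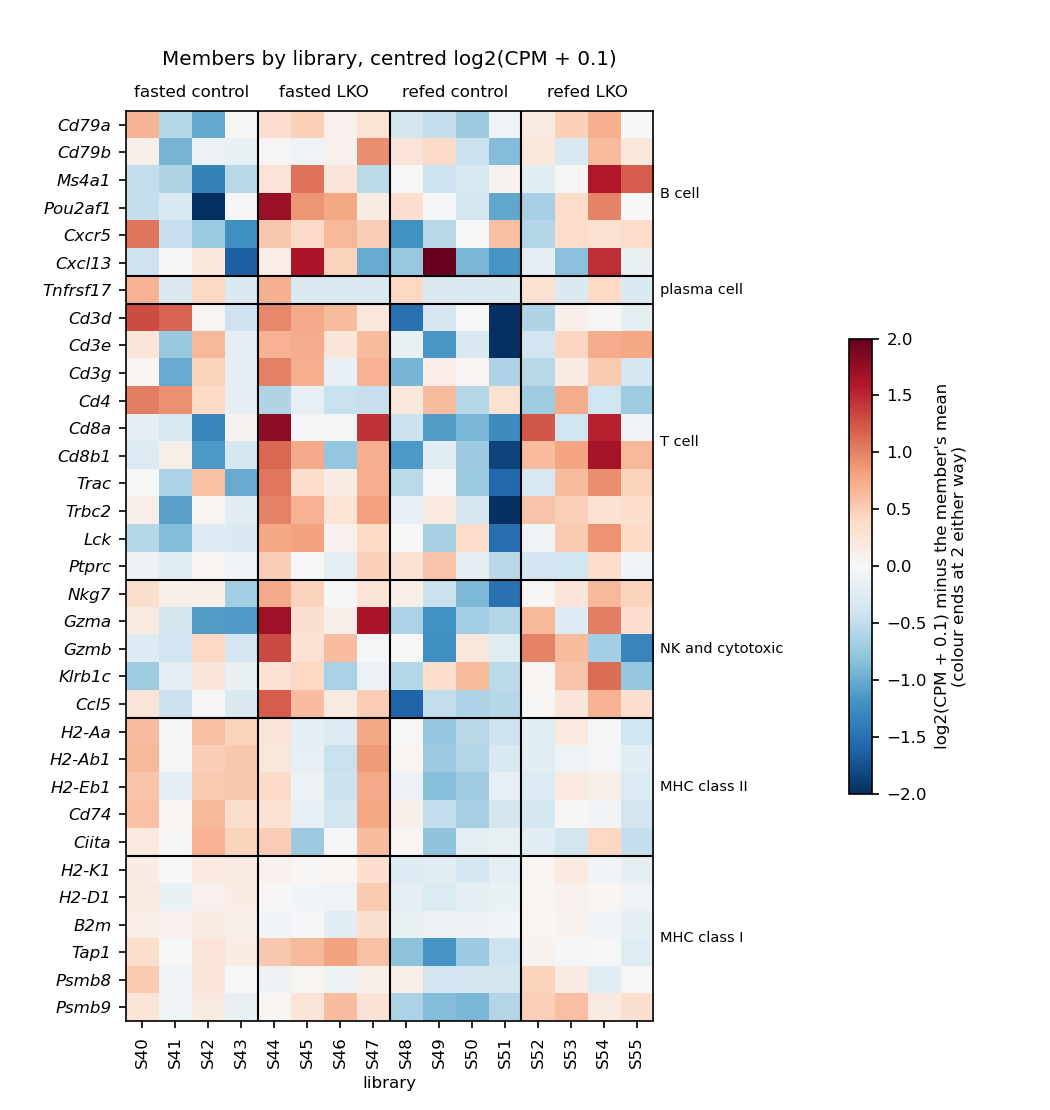
Level of the 33 members in each of the 16 libraries, as log2(CPM + 0.1) minus that member's mean over all libraries, with red above and blue below the mean and the colour ending at 2 in either direction. Members run down the vertical axis by class and libraries along the horizontal axis by group; lymphocyte rows differ from gene to gene and library to library, whereas the rows of H2-Aa, H2-Ab1, H2-Eb1 and Cd74 move together, high in S40, S42, S43 and S47 and low in S49 and S50.

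B cell genes gave 1 call by genotype among the 4 tested, for Pou2af1 in the fasted state, where 5.75% of all genes were called higher and 6.48% lower. Pou2af1 encodes OCA-B, a coactivator of B cells and plasma cells, and lies on chromosome 9 between bases 51125008 and 51151380, as the deposited tables place it (mm39 is the build named in the submitters' processing notes). In fasted control libraries S40 to S43 it had 0.248, 0.292, 0 and 0.371 CPM, and in fasted LKO libraries S44 to S47 it had 1.497, 0.792, 0.729 and 0.435 CPM. Every fasted LKO library lay above every fasted control library, and S44 was the highest of them. The log2 difference was 1.90 (SE 0.58, edgeR adjusted p = 0.0431), in a gene that passed the filter through LKO libraries only, and with no filter the call was lost (0.0664). It was also lost without any one of S40 to S46, with edgeR adjusted p from 0.0548 to 0.161. Refed control libraries S48 to S51 had 0.511, 0.372, 0.279 and 0.136 CPM and refed LKO libraries S52 to S55 had 0.205, 0.523, 0.865 and 0.390 CPM, which overlapped (log2 fold change 0.57, SE 0.58, edgeR adjusted p = 0.664).

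The B cell receptor subunit genes did not pass in either state. Cd79a had 2.48, 0.992, 0.695 and 1.54 CPM in fasted control and 1.95, 2.15, 1.62 and 1.86 CPM in fasted LKO, where the spread of the controls spanned the LKO values. In the refed state it had 1.15, 1.06, 0.876 and 1.43 CPM in control and 1.74, 2.16, 2.53 and 1.52 CPM in LKO. The refed groups did not overlap, yet the difference of 0.82 (SE 0.32, 95% interval 0.20 to 1.44) did not pass (edgeR adjusted p = 0.169). Cd79b, its partner, differed by 0.55 in the fasted state and by 0.33 in the refed state on the log2 scale, with overlapping groups in each. Cxcl13, the chemokine that draws B cells into follicles, was set by single libraries: it had 0.543 to 0.767 CPM in refed control libraries S48, S50 and S51 and 13.2 CPM in S49, the library with the most macrophage RNA. Over the 4 B cell genes tested, the median log2 fold change was 0.76 in fasted LKO and 0.45 in refed LKO.

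By edgeR, T cell genes gave calls by genotype only when both feeding states were averaged, in a contrast that uses all 16 libraries. Cd8a, Lck and Trac were higher in LKO in that contrast, whereas Cd4 had a negative estimate. These 3 were called of 9 T cell genes tested, and with Ccl5 of the NK and cytotoxic class, Tap1 and Psmb9 they made 6 of the 26 members tested that were called higher in this contrast, and 0 lower. The background over all genes was 6.71% called higher and 6.79% called lower. In all, 12 of the 26 members, these 6 included, had an unadjusted p under 0.05, with 11 above 0 and 1, Cd4, below, while 27.1% of all genes tested had such a p. DESeq2 called 10 members and limma-voom 9, but the shares over all genes given here are those of edgeR alone.

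Cd8a encodes the alpha chain of the CD8 coreceptor, and lies on chromosome 6 from 71350411 to 71356157. Fasted control libraries had 0.397, 0.350, 0.126 and 0.494 CPM and fasted LKO libraries 1.85, 0.453, 0.448 and 1.43 CPM. Refed control libraries had 0.319, 0.159, 0.199 and 0.136 CPM and refed LKO libraries 1.23, 0.327, 1.54 and 0.433 CPM. In each LKO group 2 of 4 libraries were far above the controls and the other 2 were near the highest control, and in the refed state every LKO library exceeded every control. Averaged over the states, Cd8a was higher in LKO by 1.83 (SE 0.43, 3.56-fold, edgeR adjusted p = 0.00917), and it kept this call in each of 16 fits that left out 1 library. Cd8a passed the filter through LKO libraries only. In the fit with no filter, which does not select it by its level, the difference was 1.83 (edgeR adjusted p = 0.00766). No share over all genes is given for that fit. A filter at a mean of 1 CPM left Cd8a out, since its mean over the 16 libraries was 0.618 CPM. Within a single state it did not pass in edgeR (1.59, edgeR adjusted p = 0.0845 fasted, and 2.08, 0.0771 refed). DESeq2 called it in the refed state (DESeq2 adjusted p = 0.0297). Its partner Cd8b1 was too scarce for the main test, with at most 17 counts in a library. In a fit without the filter it differed by 1.87 averaged over the states (edgeR adjusted p = 0.0116).

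Lck encodes the tyrosine kinase that CD4 and CD8 bring to the T cell receptor. It had 0.745, 0.584, 0.948 and 0.927 CPM in fasted control and 2.05, 2.09, 1.23 and 1.55 CPM in fasted LKO, with no overlap. Refed control libraries had 1.15, 0.691, 1.51 and 0.339 CPM and refed LKO libraries 1.07, 1.70, 2.23 and 1.56 CPM, with overlap. Lck was higher in LKO by 0.95 averaged over the states (SE 0.25, 1.93-fold, edgeR adjusted p = 0.0194), a call kept in each of the 16 fits without 1 library. In the fasted state alone the difference was 1.11 (SE 0.36) and just missed the threshold (edgeR adjusted p = 0.0536), while DESeq2 called it (DESeq2 adjusted p = 0.0271).

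Trac and Trbc2 are the constant segments of the T cell receptor alpha and beta chains. Trac had 0.596, 0.350, 0.948 and 0.247 CPM in fasted control, 1.35, 0.792, 0.673 and 1.06 CPM in fasted LKO, 0.383, 0.584, 0.318 and 0.136 CPM in refed control and 0.461, 0.981, 1.24 and 0.866 CPM in refed LKO. The groups overlapped in both states. Trac was higher in LKO by 1.06 averaged over the states (SE 0.31, edgeR adjusted p = 0.0328), but the call was lost without any one of S41, S43, S44, S48, S50, S51, S53, S54 or S55 (edgeR adjusted p from 0.0542 to 0.0745). Trbc2 did not overlap between genotypes in either state, with 0.292 to 0.794 CPM against 0.897 to 1.55 CPM fasted and 0 to 0.850 CPM against 0.927 to 1.13 CPM refed. Its averaged difference of 0.98 (SE 0.33) did not pass in edgeR (adjusted p = 0.0606), while DESeq2 and limma-voom called it (0.0106 and 0.0480). Trbc1, a near-identical neighbour of Trbc2 and no member of the list, was called at 0.79 (edgeR adjusted p = 0.0423), and how reads shared by these copies were counted is not given in the sources used here.

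Cd4, the coreceptor of helper T cells, which macrophages and dendritic cells may also make, had the opposite sign. It had 2.98, 2.74, 1.90 and 1.24 CPM in fasted control and 0.898, 1.25, 1.01 and 0.995 CPM in fasted LKO, so that all but 1 of the LKO libraries lay below the lowest control. Refed control libraries had 1.66, 2.23, 0.915 and 1.76 CPM and refed LKO libraries 0.819, 2.42, 1.05 and 0.823 CPM. The differences of -1.10 fasted (SE 0.38, edgeR adjusted p = 0.0663) and -0.74 averaged (SE 0.27, edgeR adjusted p = 0.0778) did not pass in edgeR. DESeq2 called both (DESeq2 adjusted p = 0.0373 and 0.0494). Of the T cell receptor complex, Cd3e had an averaged difference of 1.06 (SE 0.37, edgeR adjusted p = 0.0661, called by DESeq2 and limma-voom at 0.0444 and 0.0484), Cd3g one of 0.54 and Cd3d one of 0.31. Ptprc, the CD45 phosphatase of all white blood cells, had an averaged difference of 0.07 with a 95% interval of -0.25 to 0.39.

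Ccl5, a chemokine made by cytotoxic T cells and NK cells among others, was the most abundant lymphocyte gene per kilobase and was higher in LKO. It lies on chromosome 11 from 83416604 to 83421344. Fasted control libraries had 2.13, 1.28, 1.71 and 1.42 CPM and fasted LKO libraries 4.19, 2.77, 2.02 and 2.55 CPM, which overlapped only at S40 and S46. Refed control libraries had 0.511, 1.22, 1.11 and 1.15 CPM and refed LKO libraries 1.79, 2.09, 2.90 and 2.25 CPM, without overlap. Averaged over the states Ccl5 was higher in LKO by 0.98 (SE 0.20, 1.98-fold, edgeR adjusted p = 0.00372), and this call held in each of 16 fits that left out 1 library. In the fasted state alone the difference of 0.81 did not pass in edgeR (adjusted p = 0.0640), while DESeq2 called it (DESeq2 adjusted p = 0.0404).

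In the refed state alone 3 of the 26 members were called higher in LKO and 0 lower, namely Ccl5, Tap1 and Psmb9, while the background over all genes was 2.28% called higher and 1.35% called lower. For Ccl5 the refed difference was 1.15 (SE 0.29, edgeR adjusted p = 0.0380). This call was lost without any one of S48, S49, S50, S51, S53, S54 or S55 (edgeR adjusted p of at most 0.102), with limma-voom (0.0504) and in a fit of only the groups compared (0.0628). Nkg7, a granule membrane protein of cytotoxic cells, had a refed difference of 1.06 (SE 0.37, edgeR adjusted p = 0.121) and an averaged one of 0.73 (SE 0.25, 0.0652). The averaged one was called by limma-voom (limma-voom adjusted p = 0.0474). Gzma, the granule protease granzyme A, was too scarce for the main test. It had 0.0618 to 0.298 CPM in fasted control and 0.280 to 1.05 CPM in fasted LKO, then 0.0531 to 0.136 CPM in refed control and 0.196 to 0.618 CPM in refed LKO. In the fit without the filter its averaged difference was 1.95 (edgeR adjusted p = 0.00719). Ifng, which encodes interferon gamma, had at most 0.226 CPM in any library and was not tested.

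**Figure D2:**
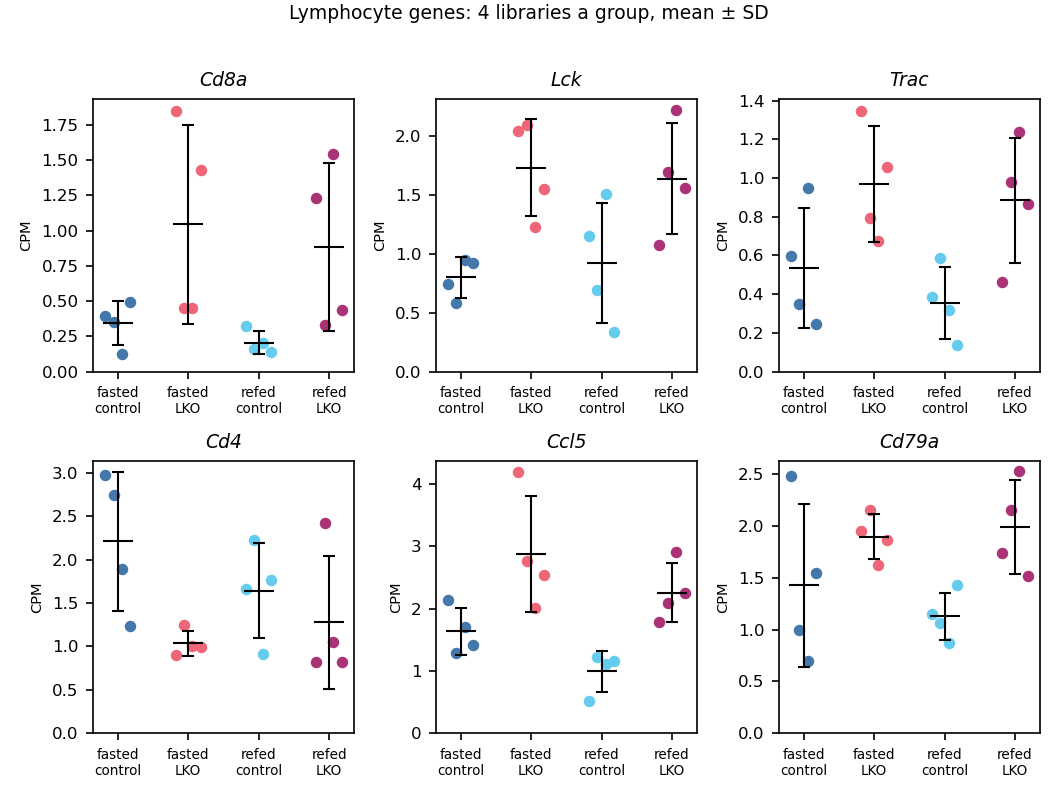
CPM of Cd8a, Lck, Trac, Cd4, Ccl5 and Cd79a, with 1 point for each library and a bar and whiskers for the mean ± SD of the 4 libraries of each group. Cd8a is split within each LKO group, with S44 and S47 at 1.85 and 1.43 CPM and S52 and S54 at 1.23 and 1.54 CPM, and Cd4 is the panel in which fasted control is the highest group.

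Further markers of the same cells, from lists that hold no member, are given list by list. The edgeR background was 6.71% higher and 6.79% lower for the averaged genotype contrast, and 5.75% and 6.48% for fasted LKO. No list was tested against this background. Of 8 further T cell genes tested, 1 (Trbc1) was called in the averaged genotype contrast. Of 10 further B cell genes edgeR called 0 in any contrast, with 1 at an unadjusted p under 0.05 in the averaged genotype contrast and 1 for refeeding in control, and DESeq2 and limma-voom called 0 as well. Among further plasma cell genes, Jchain, the joining chain of secreted IgA and IgM, had 0.927 to 3.15 CPM in fasted control against 7.89 to 27.4 CPM in fasted LKO, and 0.796 to 2.23 CPM in refed control against 12.3 to 31.6 CPM in refed LKO. Its averaged difference was 3.60 (SE 0.32, edgeR adjusted p = 6.2e-06). Mzb1, an immunoglobulin chaperone of plasma cells, had at most 0.523 CPM in any library, and Derl3, a factor of protein disposal in the endoplasmic reticulum, fell by 2.39 in LKO (edgeR adjusted p = 6.96e-04). Of 10 further plasma cell genes 7 could be tested, and these were the calls in that contrast. In the fasted state Xbp1, the transcription factor of secretory cells, was also called, at -0.36 (edgeR adjusted p = 0.0462). The summed level of the 10 further plasma cell genes was 523 to 551 CPM in fasted control and 421 to 515 CPM in fasted LKO. It was 595.5 to 705 CPM in refed control and 540 to 604 CPM in refed LKO. Which cells this RNA came from was not tested, so Derl3 and Xbp1 are not read here as measures of plasma cells.

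Levels of other cell types were read beside these differences. The summed level of 12 macrophage and monocyte markers ran from 317 to 555 CPM in fasted control, 373 to 537 CPM in fasted LKO, 268 to 972 CPM in refed control and 284 to 422 CPM in refed LKO. In refed LKO 10 of these 12 genes were below 0, with a median of -0.53, and 5 were lower at an unadjusted p under 0.05. Over all genes 47.83% were above 0 and 18.4% had such a p in this contrast. The gene called by genotype among these markers, Ly6c2, a marker of recruited monocytes, went the other way, higher in refed LKO by 1.63 (edgeR adjusted p = 0.0337) and averaged over the states by 1.12 (0.0144). The refed control sum of 972 CPM is that of S49. Without it, S48, S50 and S51 had 593, 387 and 268 CPM, which spanned the range of refed LKO. Of 8 dendritic cell markers, 5 could be tested and edgeR called 0 by genotype, with 1 at an unadjusted p under 0.05 in the fasted state, and DESeq2 and limma-voom called 0. Their summed level was 8.09 to 9.82 CPM in fasted control, 9.14 to 14.7 CPM in fasted LKO, 7.49 to 10.3 CPM in refed control and 7.42 to 11.4 CPM in refed LKO. Of the hepatocyte markers, 7 of 8 were below 0 in LKO in each state, with a median of -0.40 fasted and -0.26 refed. Ttr and Fgb were called lower in fasted LKO (-0.59 and -0.51), and in the averaged contrast Alb, Ttr and Cps1 were called lower (-0.30, -0.40 and -0.76) and Apoa1 higher (0.47). The part of these cell types in the lymphocyte differences was not tested.

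MHC genes showed another pattern by genotype: among the members, the peptide-supply genes Tap1 and Psmb9 were called higher in LKO. Psmb8, also of the peptide supply, and the presenting molecules on the list were not called by edgeR. Outside the list this split did not hold throughout. In refed LKO Tap2 and Psme1 were called higher, but so was the class I gene H2-Q4. Psmb10 was called lower in fasted LKO. In the fasted state 2 of the 26 members were called higher in LKO, Pou2af1 and Tap1, and 0 lower, against 5.75% higher and 6.48% lower over all genes tested. Tap1 encodes a subunit of the peptide transporter and lies on chromosome 17 from 34406527 to 34416199. Fasted control libraries had 65.2, 51.5, 61.0 and 56.4 CPM and fasted LKO libraries 74.3, 80.5, 89.1 and 76.7 CPM. Refed control libraries had 28.9, 22.6, 31.0 and 38.2 CPM and refed LKO libraries 53.4, 49.97, 51.5 and 43.1 CPM. Genotypes did not overlap in either state. Tap1 was higher in fasted LKO by 0.45 (SE 0.13, edgeR adjusted p = 0.0265), a call lost without S41 (0.0808), S43 (0.0666) or S46 (0.0803). In refed LKO it was higher by 0.72 (SE 0.13, edgeR adjusted p = 0.00575) and averaged over the states by 0.58 (SE 0.09, 4.9e-04), and these calls held in every fit that left out 1 library.

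Psmb9 encodes an immunoproteasome subunit, and lies beside Tap1 from 34400961 to 34406738. It had 45.6, 35.6, 42.8 and 33.9 CPM in fasted control and 38.8, 44.97, 58.2 and 46.2 CPM in fasted LKO, with overlap, and a difference of 0.25 (SE 0.13) that did not pass (edgeR adjusted p = 0.235). In the refed state it had 24.2, 20.7, 20.02 and 25.1 CPM in control and 52.4, 57.4, 42.6 and 47.4 CPM in LKO, wide apart. Psmb9 was higher in refed LKO by 1.15 (SE 0.13, 2.22-fold, edgeR adjusted p = 2.3e-04) and averaged over the states by 0.70 (SE 0.09, 1.6e-04), and it kept both calls without any 1 library.

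Whether genotype acted differently in the fasted and refed states was tested as an interaction. Psmb9 was the only member of 26 called, at 0.90 (SE 0.19, edgeR adjusted p = 0.0426), and 0 members were called lower, where 0.311% of all genes tested were called higher and 0.228% lower (45 and 33 genes, which became 43 and 65 with upper quartile scaling). Its call was lost in 11 of 16 fits without 1 library, namely S40, S41, S42, S43, S44, S47, S48, S50, S52, S53 or S55 (edgeR adjusted p from 0.0511 to 0.0953). Psmb10, another immunoproteasome subunit outside the member list, was also called, at 0.88 (SE 0.13, edgeR adjusted p = 0.0168). It had 44.4 to 55.8 CPM in fasted control, 28.5 to 36.1 CPM in fasted LKO, 38.5 to 41.9 CPM in refed control and 39.7 to 50.5 CPM in refed LKO. For Tap1 the interaction was 0.26 with an edgeR adjusted p of 0.487.

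The class I heavy chains H2-K1 and H2-D1 and the light chain B2m were close between genotypes. H2-K1 had 1998, 1804, 2069 and 2032 CPM in fasted control and 1922, 1848, 1861 and 2290 CPM in fasted LKO. Refed control libraries had 1508, 1562, 1434 and 1589 CPM and refed LKO libraries 1852, 2077, 1728 and 1605 CPM, so the refed groups lay side by side without overlap. The fasted difference of 0.00 changed sign with DESeq2 size factors. The refed one of 0.25 (95% interval 0.06 to 0.44) did not pass (edgeR adjusted p = 0.167). H2-D1 had 798, 757, 806 and 832 CPM in refed control and 938, 974, 942 and 873 CPM in refed LKO, also without overlap, and its difference of 0.22 (95% interval -0.01 to 0.45) did not pass (edgeR adjusted p = 0.335). B2m differed by -0.01 averaged over the states, with a 95% interval of -0.15 to 0.13. Psmb8, the third interferon-inducible proteasome subunit gene measured, had an averaged difference of 0.07 (95% interval -0.14 to 0.29). H2-K1 and H2-D1 belong to a family of near-identical genes, and their counts are uncertain where reads match several copies.

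**Figure D3:**
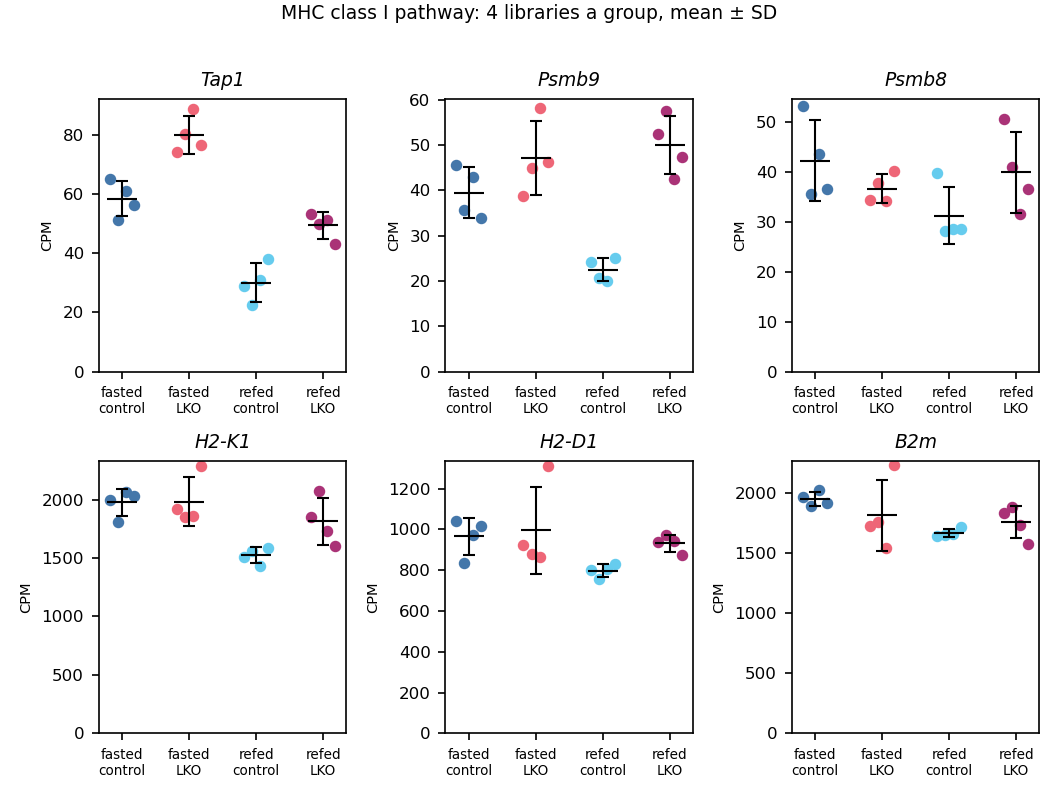
CPM of Tap1, Psmb9, Psmb8, H2-K1, H2-D1 and B2m, with 1 point for each library and a bar and whiskers for the mean ± SD of the 4 libraries of each group, on axes that start at 0. Refed control is the lowest group in all 6 panels, and the point at the top of the fasted LKO column for H2-K1 (2290 CPM) and H2-D1 (1309 CPM) is S47.

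No class II gene was called by genotype. For H2-Aa, H2-Ab1, H2-Eb1, Cd74 and Ciita the fasted differences ran from -0.24 to -0.17 and the refed ones from 0.13 to 0.39, and edgeR, DESeq2 and limma-voom each called 0 of 5 in both states, with 0 at an unadjusted p under 0.05. Averaged over the states the differences ran from -0.03 to 0.11, and that of H2-Ab1 (0.00) changed sign with upper quartile scaling. For H2-Aa the refed difference was 0.32, with a 95% interval of -0.12 to 0.75.

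The class II genes H2-Aa, H2-Ab1, H2-Eb1 and Cd74 instead fell with refeeding in control mice, and Ciita did not pass. H2-Aa and H2-Ab1 encode the alpha and beta chains of the molecule I-A, H2-Eb1 the beta chain of I-E. H2-Aa (chromosome 17 from 34501718 to 34506797) had 49.5, 31.8, 49.2 and 44.7 CPM in fasted control and 32.1, 19.0, 22.1 and 24.3 CPM in refed control. The groups overlapped only because S48, the highest refed library, just exceeded S41, the lowest fasted one. H2-Aa fell by 0.85 (SE 0.22, edgeR adjusted p = 0.0166), to 24.4 ± 5.59 CPM from 43.8 ± 8.30 CPM (SD, n = 4).

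The other chains moved in parallel. H2-Ab1 (chromosome 17 from 34476663 to 34488393) had 62.1, 38.0, 55.2 and 57.1 CPM in fasted control and 40.1, 23.7, 26.1 and 31.6 CPM in refed control and fell by 0.81 (SE 0.23, edgeR adjusted p = 0.0258). H2-Eb1 (chromosome 17 from 34524841 to 34535648) had 52.6, 31.2, 51.1 and 51.3 CPM, then 32.5, 19.5, 21.6 and 31.5 CPM, and fell by 0.83 (SE 0.24, edgeR adjusted p = 0.0284). Cd74 had 145, 100, 152 and 124 CPM in fasted control and 104, 68.7, 61.0 and 75.4 CPM in refed control and fell by 0.75 (SE 0.22, edgeR adjusted p = 0.0294). In each of these genes S41 was the lowest fasted control and S48 the highest refed control. Ciita had 1.59, 1.40, 2.27 and 1.92 CPM and then 1.41, 0.744, 1.19 and 1.22 CPM, and its difference of -0.65 (SE 0.32) did not pass (edgeR adjusted p = 0.180).

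In all, 7 of the 26 members were called lower in refed than in fasted control and 0 higher, against 7.65% lower and 7.79% higher over all genes tested. All 7 were MHC genes: H2-Aa, H2-Ab1, H2-Eb1, Cd74, H2-K1, Tap1 and Psmb9. The class II calls depended on single libraries. H2-Aa lost its call without S40 or S50 (edgeR adjusted p = 0.0539 and 0.0531). H2-Ab1 and H2-Eb1 lost theirs without S40, S42, S43, S49 or S50 (0.0516 to 0.0819 and 0.0629 to 0.0900), and Cd74 without those or S51 (0.0512 to 0.0954). The estimates stayed between -1.01 and -0.65 over all alternatives for these 4 genes.

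The class I genes called were lower in refed control with less spread. Tap1 fell by 0.96 (SE 0.13, edgeR adjusted p = 3.9e-04), to 30.2 ± 6.45 CPM from 58.5 ± 5.92 CPM (SD, n = 4), and Psmb9 fell by 0.81 (SE 0.13, edgeR adjusted p = 0.00137), to 22.5 ± 2.501 CPM from 39.5 ± 5.61 CPM. Neither gene's groups overlapped, and both kept the call without any 1 library. H2-K1 fell by 0.38 (SE 0.10, edgeR adjusted p = 0.0169), a call lost without S50 (0.0551). H2-D1 and B2m did not overlap between the states either, with differences of -0.28 and -0.23 that did not pass (edgeR adjusted p = 0.126 and 0.140). Psmb8 had a difference of -0.44 (SE 0.16, edgeR adjusted p = 0.0666) and was called by DESeq2 (DESeq2 adjusted p = 0.0425).

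**Figure D4:**
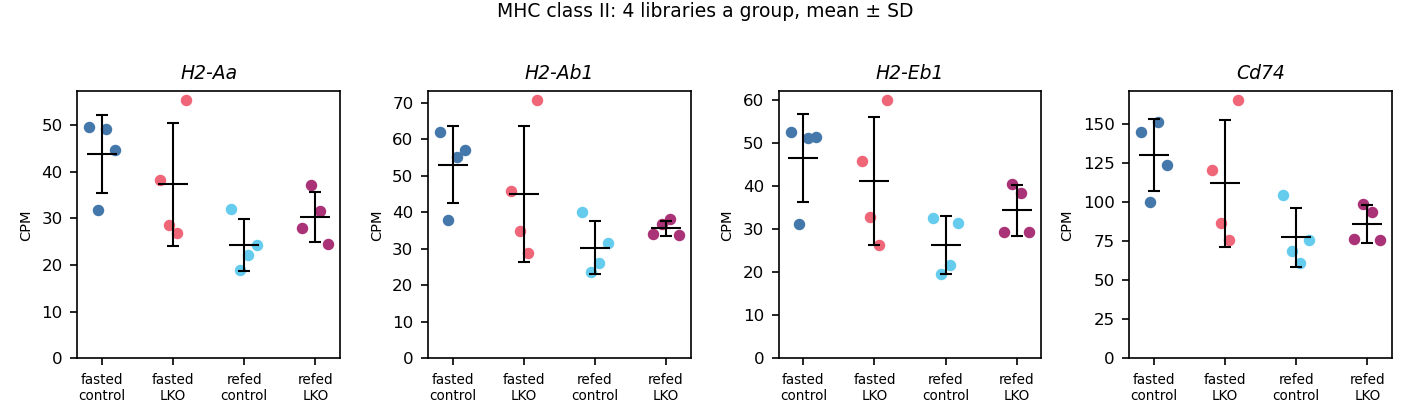
CPM of H2-Aa, H2-Ab1, H2-Eb1 and Cd74, with 1 point for each library and a bar and whiskers for the mean ± SD of the 4 libraries of each group, on axes that start at 0. The 4 panels have the same arrangement of points, with S41 as the low point of fasted control and S47 as the high point of fasted LKO.

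In LKO mice the refeeding contrast gave 1 call among the 26 members, Tap1, which was lower, and 0 higher, against 8.78% lower and 9.28% higher over all genes tested. Tap1 fell by 0.70 (SE 0.13, edgeR adjusted p = 0.00128), from 80.1 ± 6.46 CPM to 49.5 ± 4.45 CPM (SD, n = 4), with no overlap. Psmb9 had 47.04 ± 8.13 CPM fasted and 49.96 ± 6.40 CPM refed in LKO, a difference of 0.09 (95% interval -0.17 to 0.34). H2-Aa had 38.2, 28.5, 26.9 and 55.4 CPM in fasted LKO and 27.8, 37.2, 31.6 and 24.6 CPM in refed LKO, with overlap, and a difference of -0.30 (edgeR adjusted p = 0.381). The other class II genes had differences of -0.38 to -0.27. That the class II genes passed in control and not in LKO does not show that the genotypes differ: their interaction terms were 0.32 to 0.56 with edgeR adjusted p from 0.393 to 0.767. This contrast shares its libraries with the genotype contrasts, as does refeeding in control, so the values are given side by side only.

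Cell markers were read beside the fall of these class II genes in control, and their part in it was not tested. Of 6 stellate cell and fibroblast markers edgeR, DESeq2 and limma-voom called 2 higher in refed control, Lrat (0.95, edgeR adjusted p = 0.00551) and Reln (0.39, 0.0341), and of 8 hepatocyte markers they called Fgb lower (-0.51, 0.0209). Of the 12 macrophage and monocyte markers edgeR called 0 between refed and fasted control, with 0 at an unadjusted p under 0.05 and 0 by DESeq2 and limma-voom, and their median log2 fold change was 0.13. This median includes S49, where their summed level was 972 CPM against 593, 387 and 268 CPM in S48, S50 and S51. A median without S49 is not given. Of the 5 dendritic cell markers tested 0 were called by these 3 tools, with 0 at an unadjusted p under 0.05 and a median of 0.06. Of 9 T cell and 4 B cell members tested edgeR, DESeq2 and limma-voom called 0, with 1 (Cd3d, -1.75, edgeR adjusted p = 0.0513) at an unadjusted p under 0.05. Cd3d reached the level of the filter in 5 fasted libraries and 0 refed ones. It thus entered the test through the state in which it was high, and its value supports no difference between the states. Ccl5 did not overlap between refed and fasted control, with a difference of -0.70 that did not pass (edgeR adjusted p = 0.121). Without S49, the refed control library with the most macrophage RNA, the class II differences were -0.75 for H2-Aa, -0.71 for H2-Ab1, -0.71 for H2-Eb1 and -0.70 for Cd74.

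Lymphocyte and MHC genes can be set side by side over the contrasts. The 15 lymphocyte genes tested had median log2 fold changes of 0.81 in fasted LKO, 0.78 in refed LKO and 0.73 averaged, where the 11 MHC genes had -0.17, 0.25 and 0.07 and the median of all genes tested was 0.02, -0.01 and 0.00. For refeeding in control the medians were -0.37 for lymphocyte and -0.75 for MHC genes, and in LKO -0.26 and -0.27, with all genes at 0.01 and -0.02. In the averaged contrast 13 of the 15 lymphocyte genes were above 0 and 4 were called, and 7 of the 11 MHC genes were above 0 and 2 were called. Over all genes 50.98% were above 0 and 6.71% called higher. Of the lymphocyte genes called, Cd8a passed the filter through LKO libraries only, and Trac in 3 control and 7 LKO libraries. The lymphocyte counts and medians are therefore descriptions, and support no difference from the MHC genes or from all genes. For refeeding in control, 0 of 15 lymphocyte genes and 7 of 11 MHC genes were called by edgeR, with 2 and 10 at an unadjusted p under 0.05. Over all genes 7.65% were called lower and 30% had an unadjusted p under 0.05, so the lymphocyte count lay below the background. DESeq2 called 0 and 8, and limma-voom 0 and 7, but the shares over all genes are those of edgeR alone. The lymphocyte genes have few counts and the MHC genes many, so a change of a given size could be called more readily in the MHC genes.

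**Figure D5:**
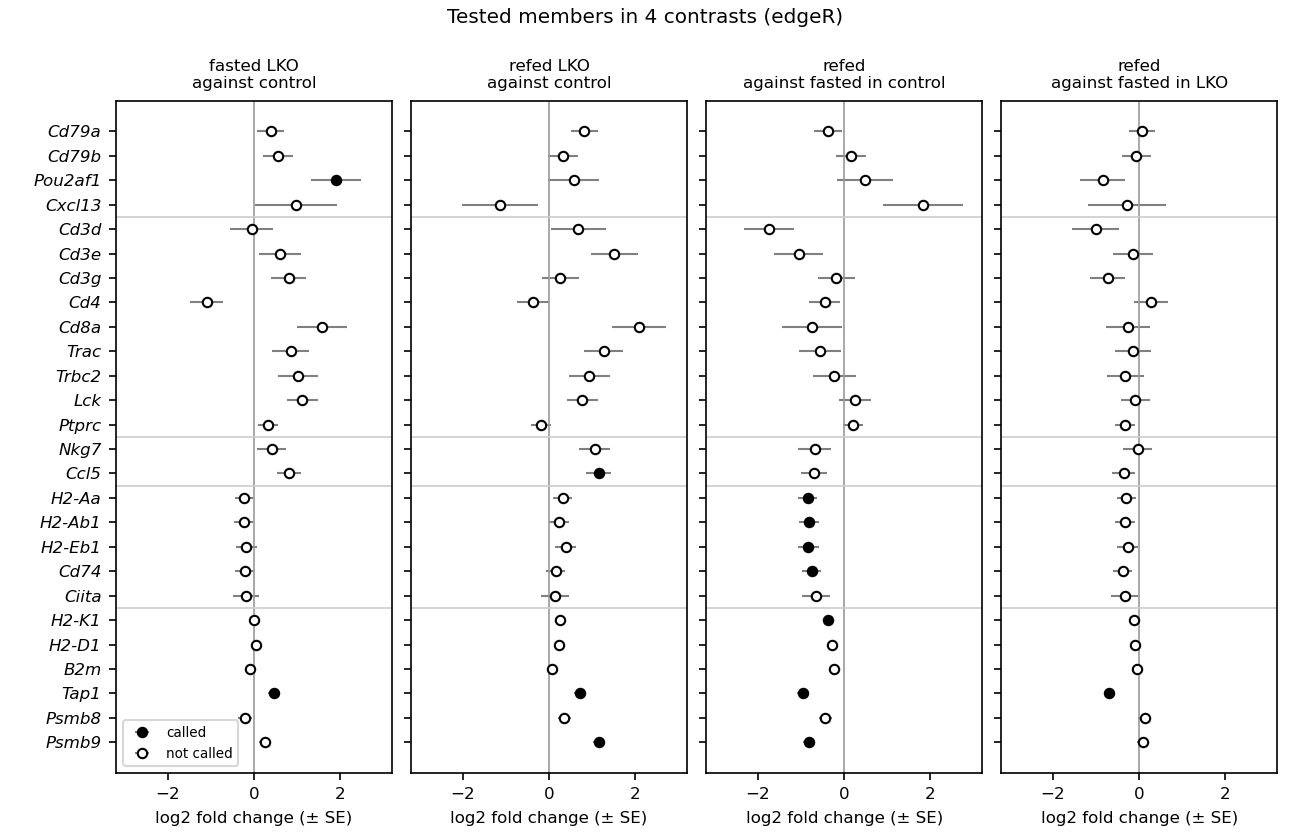
Log2 fold change ± SE of the 26 members tested, in 4 panels for the genotype contrast in each feeding state and the refeeding contrast in each genotype, with filled points called at an edgeR adjusted p under 0.05. The lymphocyte genes, in the upper 3 blocks, have long error bars and lie mostly right of 0 in the genotype panels, and the class II block lies left of 0 for refeeding in control, between -0.85 and -0.65.

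Members of a class varied together across libraries to very different degrees. Over the 16 libraries, which share groups and depth, the median Pearson's r of log2 CPM between pairs of genes was 0.949 in class II and ran from 0.938 to 0.968 among H2-Aa, H2-Ab1, H2-Eb1 and Cd74. It was 0.617 in class I, 0.527 among 9 T cell genes and 0.316 among 4 B cell genes, which have far fewer counts than the class II genes. The lowest pair among T cell genes was at -0.581. The genes outside the list whose profile was most like the class II mean were Htra3 (r = 0.928), H2-DMb1 (0.911), Dusp2 (0.901), Jund (0.881), Ctsd (0.877) and Pitpnm1 (0.870). H2-DMb1 encodes a chain of the H2-DM molecule, which loads peptides on class II, and in control its refeeding difference was -0.86 (edgeR adjusted p = 0.0574; DESeq2 and limma-voom called it). The genes most like the B cell mean were Kdr (r = 0.823), the receptor of endothelial cells for VEGF, Elk3 (0.806), Vasp (0.802), Gimap6 (0.782), D730003I15Rik (0.780) and Ccn2 (0.766).

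Class II promoters were searched for the X1 and Y boxes already known from such promoters. RefSeq promoter windows on GRCm38.p6, each from 250 bases before to 50 bases after a gene's start, covered 22 of the 33 members found, and H2-Aa and H2-Eb1 of the class II genes. GNAACT followed by ATTGG, on either strand and 20 to 35 bases apart, occurred in 0.715% of 32851 windows, in both H2-Aa and H2-Eb1 and in 0 of the 20 other members with a window. ATTGG alone occurred in 37.4% of windows. The stretches are shown with X1 and Y in capitals, and with H2-DMb1 for comparison.
H2-Aa: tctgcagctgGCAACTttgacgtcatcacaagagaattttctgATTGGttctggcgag
H2-Eb1: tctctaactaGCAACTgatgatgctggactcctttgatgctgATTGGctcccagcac
H2-DMb1: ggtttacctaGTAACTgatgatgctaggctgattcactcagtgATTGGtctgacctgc
They lie at chr17:34287857-34287914 on the minus strand, chr17:34305766-34305822 on the plus strand and chr17:34153087-34153144 on the plus strand. The boxes are 27 bases apart in H2-Aa, 26 in H2-Eb1 and 27 in H2-DMb1, and end at positions -44, -55 and -57 from the start. A match describes the letters in the window and is not evidence of binding. The pattern was taken from class II promoters, so finding it there was fixed in advance and says nothing about why these genes moved together.

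The class I heavy chain promoters share another arrangement. An NF-kappa B core, GGGATTCCC, is followed by an interferon response-like element, GAANNGAAA, here on the opposite strand, and both are in capitals.
H2-K1: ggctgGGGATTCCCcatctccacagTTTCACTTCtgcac
H2-D1: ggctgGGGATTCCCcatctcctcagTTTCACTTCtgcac
These lie at chr17:34000424-34000462 on the minus strand and chr17:35262919-35262957 on the plus strand of GRCm38.p6. Searched on both strands, GGGATTCCC occurred in 0.353% of all windows and, among members, in H2-K1 and H2-D1. GAANNGAAA occurred in 7.52% of windows and, among members, in H2-K1, H2-D1 and Cd8a.

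Tap1 and Psmb9, the genes called most often, are arranged head to head. Their RefSeq starts are 226 bases apart on opposite strands, and the 225 bases between them, chr17:34187331-34187555 of GRCm38.p6 on the plus strand, are shown because both genes face this stretch. Capitals mark a Y box match on the minus strand at its left end, beside the start of Psmb9, and a GC box, GGGGCGGGG, also on the minus strand.
Psmb9 to Tap1: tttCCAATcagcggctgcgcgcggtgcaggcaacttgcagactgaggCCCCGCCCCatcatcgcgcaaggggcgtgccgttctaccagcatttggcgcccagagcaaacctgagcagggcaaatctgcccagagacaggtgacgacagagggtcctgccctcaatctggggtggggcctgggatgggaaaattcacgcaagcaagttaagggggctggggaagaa
The GC box occurred in 11.4% of all windows. In the deposited coordinates the genes overlap by 212 bases on opposite strands. The libraries were made with dUTP, which marks strand, but whether counting used strand is not given in the sources used here, so reads in the overlap may have been assigned to either gene or to neither. The same doubt applies to B2m, which shares 5398 bases with Patl2, and to Ciita, which shares 25888 bases with Dexi. It also applies to H2-Eb1, which shares 2204 bases with Gm20513. On the same strand, Ptprc shares 5864 bases with A130071D04Rik, Cxcr5 780 bases with a long noncoding RNA gene and Cd74 88 bases with Mir5107. There the use of strand could not separate the reads.

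Other genes of the class I route, from a list of 18 that holds no member, moved in both directions, against the shares of all genes called that are given above for each contrast (2.28% higher and 1.35% lower in refed LKO, 7.79% and 7.65% for refeeding in control). Between refed LKO and refed control 3 were called higher, H2-Q4 (0.53), Tap2 (0.49) and Psme1 (0.35), and 3 lower, the chaperones of class I assembly Calr (-0.51), Pdia3 (-0.54) and Canx (-0.31). Between refed and fasted control 5 were called lower, H2-T23, H2-Q4, H2-Q10, Tap2 and Psmb10, with log2 fold changes of -0.59 to -0.32, and 3 higher, Calr (0.80), Pdia3 (0.92) and Canx (0.66). Of 10 further class II genes edgeR called 0 in that contrast, with 2 at an unadjusted p under 0.05, while DESeq2 and limma-voom called H2-DMb1. On the interferon gamma route Socs1, a feedback inhibitor of the receptor, was called in the same pairwise contrasts as Psmb9, in refed LKO and for refeeding in control. It had 1.01 to 1.67 CPM in fasted control, 0.319 to 0.584 CPM in refed control and 0.780 to 1.38 CPM in refed LKO, a fall of 1.51 with refeeding in control (edgeR adjusted p = 0.00408) and a difference of 1.40 in refed LKO (0.0179).

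The authors' deposited table of each comparison holds an adjusted p for the 33 members, and those under 0.05 there include every member called here in that comparison. For fasted LKO against control, the authors' deposited table has 4 members under 0.05 and adds Cd4 (-1.11) and Lck (1.11). For refed LKO against control, the authors' deposited table has 6 and adds Cd8a (2.12), Cd8b1 (2.57) and H2-D1 (0.23). For refed against fasted control, the authors' deposited table has 9, all lower, and adds B2m (-0.23) and H2-D1 (-0.27). For refed against fasted LKO, the authors' deposited table has Tap1 alone, as here.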

How the data were processed

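Poly-A RNA of liver was sequenced in 16 libraries, per the labels' protocols. The authors deposited 4 tables, each comparing 2 groups, with raw read counts per gene, log2 fold changes, p-values adjusted over the table, and gene lengths and coordinates, per the file headers. The submitters' processing notes name HISAT2 2.0.5 and mm39. The counting tool, its use of strand and the annotation are not given in the sources used here. Another 64 columns with values for single libraries were left aside. Tables were joined on gene identifier (25803 genes, with 0 counts differing between tables), and 3148 genes absent from a table were set to 0 in its libraries. A count column took its group from the group name shared by the headers of the pair of tables that hold it. Library totals, 14721601 to 24618230 counts, limit precision most for the lymphocyte genes.

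Counts were fitted in R 4.3.3 with edgeR 4.0.16 (filterByExpr, TMM factors 0.941 to 1.07, glmQLFit on the 4 groups over 16 libraries, glmQLFTest), and 14488 genes were tested in 6 contrasts. Genes count as called where the p adjusted over all genes tested (Benjamini-Hochberg) was under 0.05. SE is the log2 fold change divided by the square root of F, and 95% intervals are 1.96 SE. CPM use TMM-scaled totals, and log2 CPM a prior count of 2. DESeq2 1.42.0, limma 3.58.1 (voom), other scalings and filters, a robust prior, only the groups compared, and leaving out each library were alternatives. The script was tested on simulated data. Genes named are all members, called genes of the further lists (up to 5 for a list and contrast) and the 6 genes most like the B cell and class II means. Some others, such as Mzb1 and Ifng, were named after their values were seen. Some results are not reported here. The members and lists were chosen with earlier results of these data known.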

Additional observations from a re-analysis of the deposited data

Results flagged for a closer look

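In 132 sets of 4 libraries (33 members in 4 groups), 14 had a highest or lowest library far from the other 3 (its gap to the nearest of them took up most of the whole range, past Dixon's 95% critical value). Chance flags about 1 in 20 such sets. High libraries were Cd79b in S47 (2.61 CPM against 1.25 to 1.40), Cxcl13 in S49 (13.2 CPM, 249 counts) and in S54 (3.96 CPM), Cd4 in S53 (2.42 CPM against 0.819 to 1.05), Cd8b1 in S54 (1.05 CPM), Gzmb in S42 (0.379 CPM, 6 counts), H2-K1 in S47 (2290 CPM against 1848 to 1922), H2-D1 in S47 (1309 CPM against 865 to 926) and Psmb8 in S48 (39.9 CPM against 28.2 to 28.6). Tnfrsf17 was flagged in S44 (0.0998 CPM) and S48 (0.0639 CPM) on 2 and 1 counts with 0 in the rest. Low libraries were Cxcr5 in S52 (0.154 CPM, 3 counts), Ccl5 in S48 (0.511 CPM against 1.11 to 1.22) and H2-Eb1 in S41 (31.2 CPM against 51.1 to 52.6).

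The genotype effect on Psmb9 differed between the feeding states by the interaction test (0.90, edgeR adjusted p = 0.0426), as reported with its dependence on single libraries.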

How the results depend on the processing

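No paired analysis was possible because the count columns carry no replicate numbers. The number of members called moved by over 1.5 times in 4 contrasts. DESeq2 called 5 members in fasted LKO (2 by edgeR) and 10 in the averaged genotype contrast (6 by edgeR). No share over all genes is given for DESeq2. Leaving out 1 library gave 0 to 3 members called in fasted LKO, 5 to 10 in the averaged contrast (10 without S52), 3 to 8 for refeeding in control (3 without S40 or S50, 4 without S49) and 0 or 1 for the interaction; in fasted LKO it was 0 without S41 and 1 without S42, S43 or S44. The counts in refed LKO (3) and for refeeding in LKO (1) stayed within 1.5 times under every alternative run. No called member changed sign under any of them. These counts include members that pass only another filter. Scaling moved the median of all genes by less than 0.1 on the log2 scale. Depth limits the lymphocyte genes: 6 members have 100 counts or fewer over the 16 libraries.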

Other observations

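Some of the further calls among genes of other lists were these. In refed LKO the proliferation genes Top2a and Cdk1 were higher by 2.17 and 1.93 (edgeR adjusted p = 0.0294 and 0.0426), calls that limma-voom did not make. The summed level of the proliferation genes was 16.9 CPM in S52 and 4.20 to 8.58 CPM in the other refed LKO libraries. Clec4g, a lectin of sinusoidal endothelium, was higher in refed LKO by 0.44 (edgeR adjusted p = 0.0388). In fasted LKO Alas2, the heme synthesis enzyme of red cell precursors, fell by 1.04 (edgeR adjusted p = 4.99e-04) and Dcn, a matrix proteoglycan of fibroblasts, rose by 0.36 (0.0413). Ifngr2, a chain of the interferon gamma receptor, was higher in fasted LKO by 0.50 (edgeR adjusted p = 0.0422) and fell with refeeding by 0.77 in both genotypes. In fasted LKO 4 further class I genes fell, Calr by 0.70, Psmb10 by 0.62, Pdia3 by 0.57 and Tapbpl by 0.34, by edgeR's test. Cxcl12, a chemokine of lymphoid and stromal niches, rose by 0.53 with refeeding in control (edgeR adjusted p = 0.0368).

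Members too scarce for the main test were also fitted without a filter. Ms4a1, which encodes CD20 of B cells, then differed by 1.35 averaged over the states (edgeR adjusted p = 0.0439), while Cxcr5, Gzmb, Klrb1c and Tnfrsf17 had averaged differences of 0.55, 0.74, 0.36 and 0.09 that did not pass.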
